A study of Mus musculus with 12 samples.

Results

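The 31 genes described here cover cholesterol synthesis, cholesterol handling and their control by the sterol regulatory element-binding proteins (SREBPs) in the injured mouse retina. They were chosen by symbol from a list of pathway genes, and all 31 were found among the 25655 genes counted. The choice was made with earlier results of these data known, so shares set beside those of all genes are descriptive. By role they comprise 7 mevalonate enzymes, 11 squalene and sterol enzymes, 5 genes of SREBP control, 3 genes of sterol transport and 5 enzymes of acetyl-CoA and fatty acid synthesis. No lipoprotein receptor is among them.

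The study crushed the left optic nerve (ONC, optic nerve crush) of C57BL/6J mice aged 8 to 10 weeks in the sample characteristics, injected the eye and sequenced total RNA of the whole retina 2 days later. All retinas described here were therefore injured, and the injection was PBS as control, Fluvastatin, which belongs to the statins and blocks the enzyme HMG-CoA reductase, or MBV, matrix-bound nanovesicles prepared from porcine urinary bladder. Each of these 3 groups had 3 libraries. Retinas given Fluvastatin + MBV were not analysed here. The study used male and female mice in every group, and the labels do not say whether the libraries of a group came from separate mice, so p-values measure only the spread between these samples. In whole retina, fewer cells of a type and less RNA per cell cannot be told apart.

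Cholesterol is built from acetyl-CoA through mevalonate, farnesyl diphosphate and squalene, and HMG-CoA reductase, the enzyme that statins block, makes the mevalonate. When sterols in the endoplasmic reticulum fall, the escort protein SCAP carries the SREBPs to the Golgi, where they are cleaved and released to switch on most genes of this pathway. INSIG proteins hold SCAP back when sterols are plentiful, and Insig1 is itself an SREBP target, so its transcript is often read alongside those of the enzymes. In the retina, cholesterol is made locally, with Müller glia as a known site, and is also taken up from the blood.

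SREBPs bind sterol response elements, often near boxes that bind the factor NF-Y. The stretches upstream of Hmgcs1, Mvd and Insig1 are shown because these genes head the changes described below: Mvd and Hmgcs1 had the largest rises with fluvastatin, and Insig1 had the largest difference between MBV and fluvastatin. The sequences are from RefSeq (GRCm38.p6) and each matched GRCm39 at a single place. The Hmgcs1 stretch lies at chr13:120151637-120151886 on the plus strand, the Insig1 stretch at chr5:28276160-28276360 on the plus strand and the Mvd stretch at chr8:123170162-123170411 on the minus strand. They hold 250 bases before the RefSeq start, which for Hmgcs1 ends 29 bases before the counted gene, except for Insig1, where the last 49 bases lie inside the counted gene and were left out. Capitals mark TCACNCCAC, a form of the sterol response element, and CCAAT, the NF-Y box, on either strand, so that CCAAT on the other strand is read as ATTGG.
Hmgcs1: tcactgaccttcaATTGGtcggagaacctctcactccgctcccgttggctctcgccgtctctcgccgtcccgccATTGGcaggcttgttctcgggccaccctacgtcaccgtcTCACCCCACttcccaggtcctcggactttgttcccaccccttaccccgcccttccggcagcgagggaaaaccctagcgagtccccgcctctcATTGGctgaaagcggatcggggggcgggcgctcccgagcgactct
Insig1: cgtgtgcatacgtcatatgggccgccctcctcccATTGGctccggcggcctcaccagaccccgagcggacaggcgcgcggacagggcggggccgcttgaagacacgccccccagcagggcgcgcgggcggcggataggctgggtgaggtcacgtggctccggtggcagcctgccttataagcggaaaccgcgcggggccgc
Mvd: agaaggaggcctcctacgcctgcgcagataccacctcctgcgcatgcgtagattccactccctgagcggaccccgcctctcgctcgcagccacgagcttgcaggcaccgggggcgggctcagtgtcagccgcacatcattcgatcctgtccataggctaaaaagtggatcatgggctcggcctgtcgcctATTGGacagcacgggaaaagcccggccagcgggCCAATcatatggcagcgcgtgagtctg
The Hmgcs1 stretch holds TCACNCCAC from 137 to 129 bases before the start, between NF-Y boxes. The Insig1 and Mvd stretches hold NF-Y boxes and no TCACNCCAC, which says only that these letters are not in these windows. RefSeq windows were found for 25 of the 31 genes, 33 windows in all. CCAAT occurred in 22 of the 33, or 66.7%, beside 33.8% of all 32851 promoter windows of that length. TCACNCCAC occurred in 1 of the 33 windows, beside 1.05% of all windows. The 2 motifs share no base in the stretches shown. A match of letters is a description and not a binding site.

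Library totals of gene counts ranged from 26325065 to 30992040 in the PBS group, from 23634662 to 27098889 in the fluvastatin group and from 21349516 to 26738043 in the MBV group. Counts of the 31 genes ran from 130 to 7966 per library, so each was tested in every comparison. Levels below are CPM, the count scaled to a common library size after normalization by edgeR's TMM method. Changes are log2 fold changes tested in edgeR by its quasi-likelihood method, and their p-values were adjusted over all genes by the Benjamini-Hochberg procedure (FDR), with a call at an FDR under 0.05. In the labels, PBS carries library numbers of a different set from fluvastatin and MBV. The set and the treatment therefore cannot be told apart in either comparison with PBS, whereas MBV and fluvastatin lie in the same set. All 8 rod markers were detected with a summed level of 44823 to 48463 CPM in the PBS, 40007 to 43272 in the fluvastatin and 31159.6 to 43931 in the MBV libraries. Other cell type markers also moved with the groups. The summed level of 8 Müller glia markers was 3669 to 4279 CPM in the PBS, 2176 to 3416 in the fluvastatin and 2013 to 3350.3 in the MBV libraries. That of 9 pigment epithelium and melanocyte markers was 138 to 174, 82.3 to 92.0 and 57.1 to 108 CPM. Lens markers, 9 genes, summed to 22.9 to 28.3, 23.1 to 41.3 and 89.0 to 197 CPM, and MBV replicate 3 stood apart in 9 monocyte and macrophage markers, at 139 CPM beside 16.6 and 30.4 in the other MBV libraries and 19.3 to 37.5 with PBS. The summed levels of retinal ganglion cell, astrocyte, endothelial and microglial markers were 591 to 725, 341 to 389, 252 to 307 and 73.0 to 84.0 CPM with PBS, 655 to 888, 391 to 406, 235 to 261 and 63.0 to 74.2 with fluvastatin, and 612 to 758, 323 to 351, 228 to 274 and 69.2 to 87.4 with MBV. Kdr held most of the endothelial sum, at 238 of 266 CPM in PBS replicate 1. Over the 6 endothelial genes the median log2 fold change from PBS was 0.20 with fluvastatin, where none was called, beside 19.6% of all genes. It was 0.41 with MBV, where 1 was called higher, beside 12% of all genes. No marker was at 0 in all libraries, and Crygs, Lim2 and Ly6c2 were at 0 in at least 1. The part of these cell type markers in the results below was not tested.

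**Figure D1:**
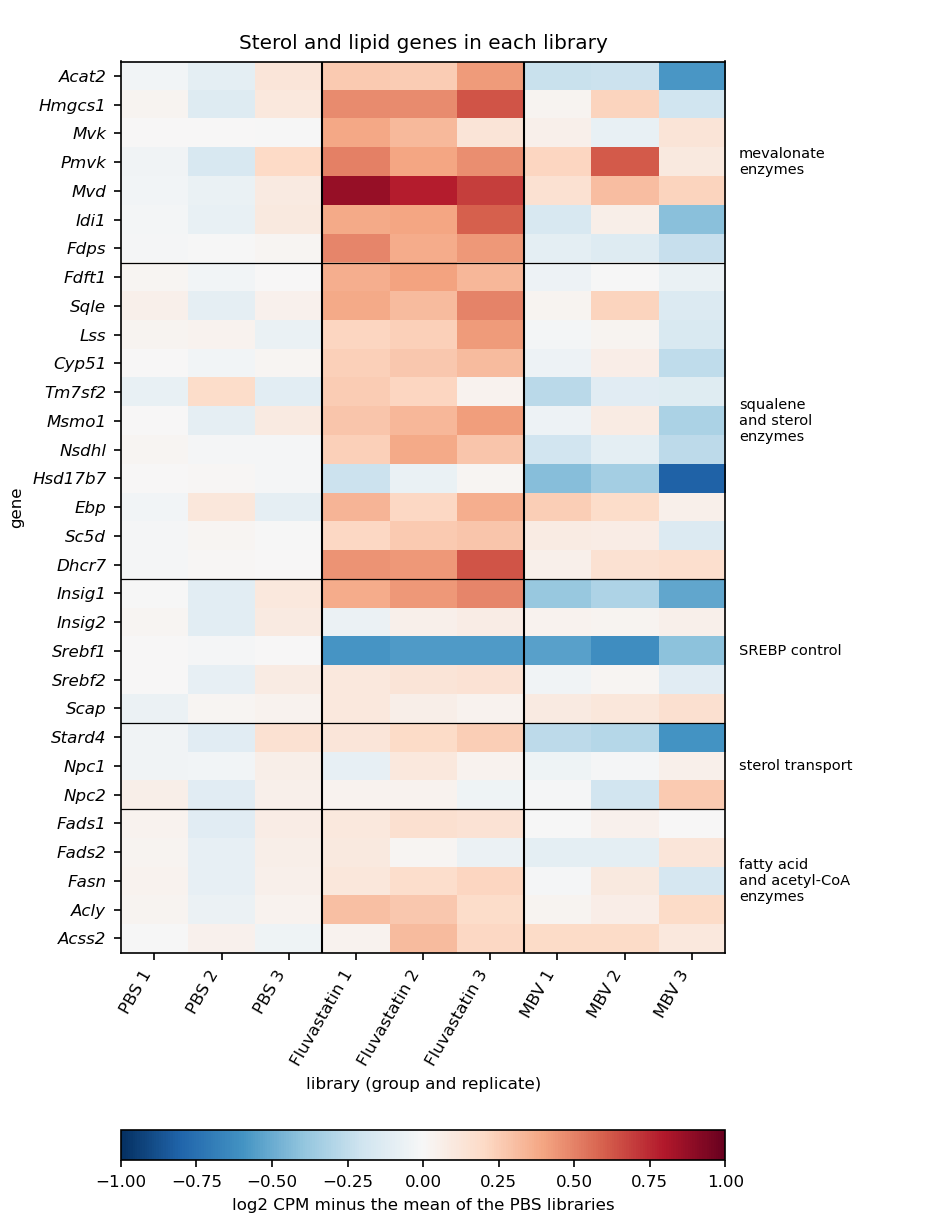
Each cell is the log2 CPM of a gene (rows, grouped by role) in a library (columns, group and replicate) minus the mean of the 3 PBS libraries. Apart from Hsd17b7, the mevalonate and sterol enzymes are above the PBS mean in all fluvastatin columns, Insig1 is above it with fluvastatin and below it with MBV, and Srebf1 is below it in all 6 treated libraries.

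Per kilobase of the canonical transcript, the pathway spanned a wide range in the PBS retina. The level of Acly, which makes cytosolic acetyl-CoA from citrate, was the highest at 56.0 ± 1.93 CPM per kb (SD, n = 3). Hmgcs1 followed at 37.2 ± 3.02 and Srebf2, the SREBP gene chiefly tied to sterol synthesis, at 34.7 ± 2.00, within their SDs of each other. Insig1 at 30.5 ± 2.24, Scap at 30.3 ± 1.05 and Srebf1 at 28.3 ± 0.168 came next, so 4 of the 5 control genes ranked among the 6 highest levels. The lowest levels per kb were those of Mvd at 3.90 ± 0.223, Hsd17b7 at 3.63 ± 0.0274 and Mvk at 2.39 ± 0.0105 CPM per kb. The genes varied little within groups, with a median coefficient of variation of 5.06% with PBS, 4.93% with fluvastatin and 7.04% with MBV. MBV replicate 3 was the lowest of its group for 19 of the 31 genes, and PBS replicate 2 for 20.

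**Figure D2:**
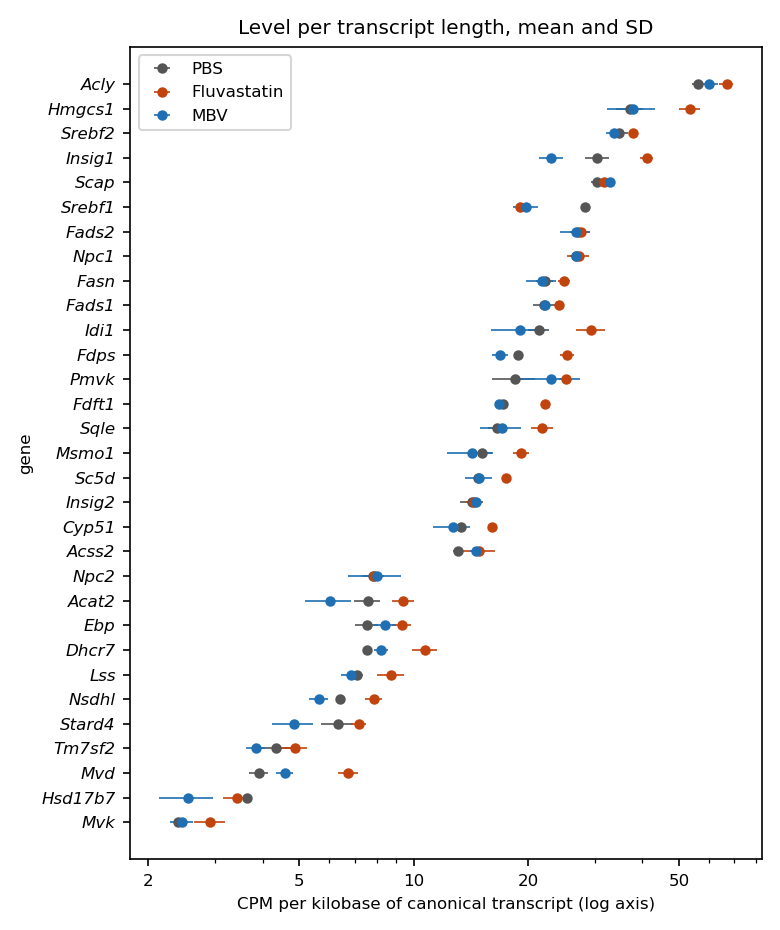
Points give the mean level of each gene in CPM per kilobase of canonical transcript on a log axis, bars give the SD over 3 libraries, and colours give the group. Genes are ordered by their level with PBS, from Mvk at the bottom to Acly at the top, and the fluvastatin points lie to the right of the others for most enzymes.

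With fluvastatin compared to PBS, most enzymes of the synthesis pathway rose, by modest amounts, and 29 of the 31 genes had a log2 fold change above 0. Of the 31 genes, 20 passed the test (64.5%), beside 19.6% of all 18818 genes tested. The called genes comprised 19 that rose, beside 9.36% of all genes called higher, and Srebf1, which fell. The rises included all 7 mevalonate enzymes (median log2 fold change 0.45) and 9 of 11 squalene and sterol enzymes (median 0.30), along with Insig1 and, in the acetyl-CoA and fatty acid group, Acly and Fasn. The median over all 31 genes was 0.27, beside -0.01 over all genes, and no called gene reached a fold of 2, beside 1.17% of all genes that were called at such a fold. An unadjusted p under 0.05 with a higher level was found for 23 of the 31, beside 15.5% of all genes. The 3 fluvastatin libraries lay above the 3 PBS libraries without overlap for 21 genes, beside 17.3% of all genes. DESeq2 called 18 of the genes higher and 1 lower, beside 3545 of all genes called in either direction.

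With MBV compared to PBS, a few genes of the pathway were lower. The test called 5 of the 31 genes, all lower (16.1%), beside 26.1% of all 18897 genes called and 14.1% called lower. The share was thus below that of all genes called in either direction and near that of all genes called lower. They were Srebf1, Hsd17b7, Insig1, Stard4 and Acat2. The median over the 31 genes was -0.03, beside 0.01 over all genes. With all libraries, no gene was called higher by edgeR or DESeq2, beside 12% of all genes called higher by edgeR, and none was called at a fold of 2 or more, beside 1.95%. An unadjusted p under 0.05 was found for 11 of the 31, 4 higher and 7 lower, beside 37.8% of all genes. MBV and PBS libraries did not overlap for 4 genes that were higher, beside 20.3% of all genes, and for 8 that were lower, beside 21%. Without PBS replicate 1 or PBS replicate 3, 3 genes passed (Srebf1, Hsd17b7 and Insig1), and Acat2 and Stard4 did not. Over all genes, 2711 and 4151 passed in these settings. Without MBV replicate 3, in which the monocyte and macrophage markers were high, 6 passed, beside 5664 of all genes. Of the 6, Srebf1, Hsd17b7, Insig1 and Stard4 were lower with MBV and Pmvk and Acss2 were higher. Acss2 was also called higher where only genes with at least 10 counts in 2 libraries were tested.

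Between MBV and fluvastatin, which were taken to lie in the same set, few genes of the retina passed the test. Genes of this pathway were among them. Of all 18721 genes tested 11 passed (0.0588%), and 3 of these were among the 31 described here: Insig1, Fdps and Fdft1, at ranks 1, 4 and 7 by p-value. All 3 were lower with MBV, beside 0.032% of all genes called lower. In all, 27 of the 31 genes had a log2 fold change below 0, with a median of -0.34 beside 0.01 over all genes. An unadjusted p under 0.05 was found for 22 of the 31, each lower with MBV, beside 4.91% of all genes lower at that level. MBV and fluvastatin libraries did not overlap for 20 genes, all lower with MBV, beside 7.88% of all genes. By role, the median was -0.56 over the mevalonate enzymes, -0.35 over the squalene and sterol enzymes, -0.12 over the acetyl-CoA and fatty acid enzymes, -0.02 over the sterol transport genes and 0.02 over the SREBP control genes, of which 3 of 5 were above 0. The mevalonate enzymes ran from -0.64 for Acat2 (FDR = 0.100) and -0.62 for Idi1 (FDR = 0.134) to -0.13 for Pmvk (FDR = 0.723), and the squalene and sterol enzymes from -0.49 for Nsdhl (FDR = 0.100) to -0.14 for Ebp (FDR = 0.596). No gene of the pathway was called higher with MBV by edgeR or DESeq2, beside 0.0267% of all genes by edgeR, and none had a p under 0.05 in that direction, beside 5.77% of all genes. None lay higher without overlap, beside 8.53%, and none was called at a fold of 2 or more, beside 0.0107%.

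How many genes of the pathway passed between MBV and fluvastatin depended on single libraries, as did the count over all genes. The pathway count was 0 without MBV replicate 1, where 0 of all genes passed. It was 1, Insig1, without fluvastatin replicate 2 or fluvastatin replicate 3, beside 2 of all genes in each. Without MBV replicate 2 it was 5, beside 15 of all genes, and without MBV replicate 3 it was 9, beside 197. DESeq2 called 13, beside 126 of all genes, and a fit of all 9 libraries called 9, beside 38. In each of these settings 18 to 22 of the 31 genes had an unadjusted p under 0.05, none of them higher with MBV. The 3 comparisons share libraries, so the values for a gene in them are not independent of each other.

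**Figure D3:**
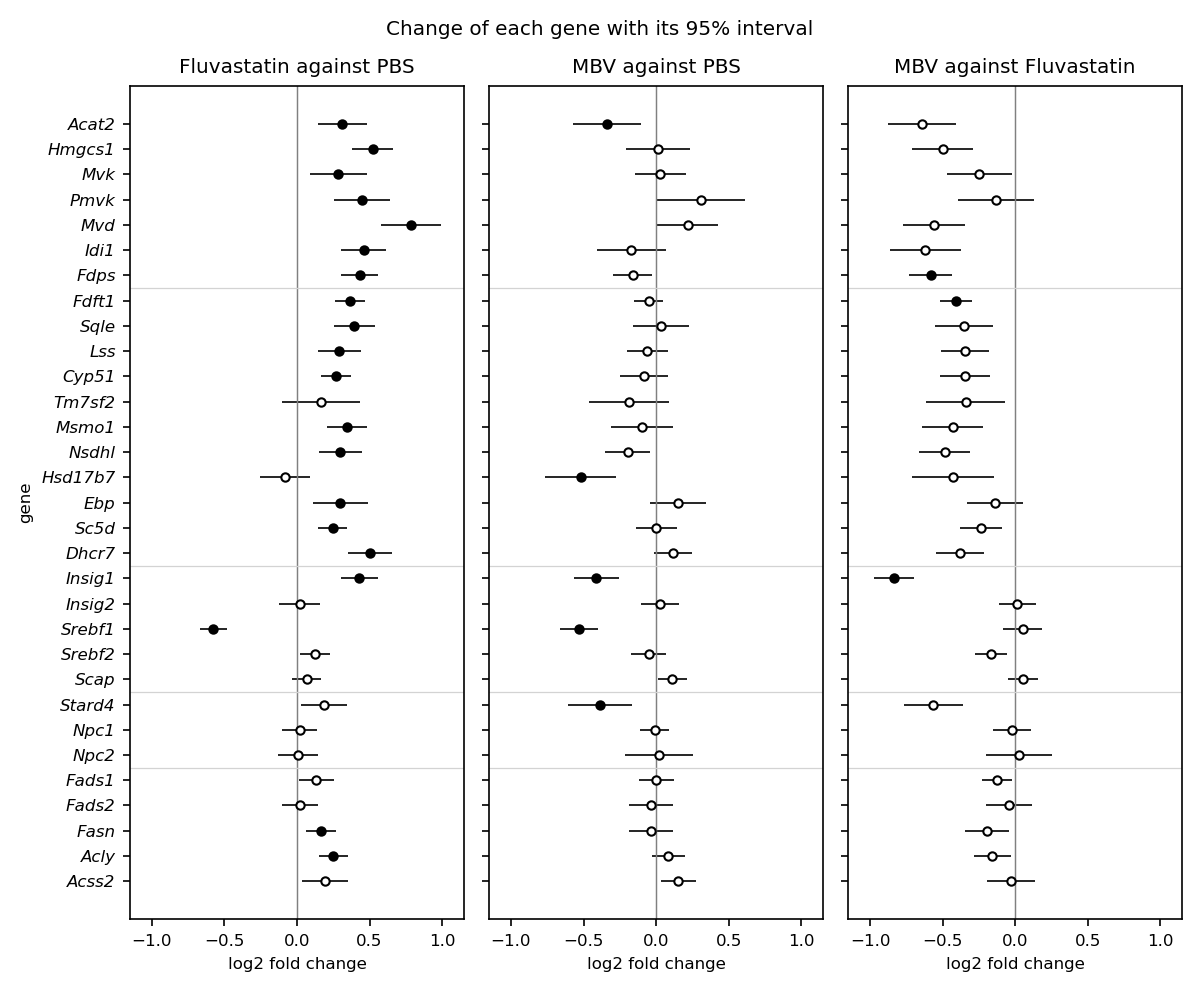
Points give the log2 fold change of each gene (first group minus second) and bars its 95% confidence interval from edgeR's quasi-likelihood fit, with filled points at an FDR under 0.05 and grey lines between roles. Filled points lie mostly right of 0 for fluvastatin against PBS (20 genes), left of 0 for MBV against PBS (5) and left of 0 for MBV against fluvastatin (3).

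Among the mevalonate enzymes, Mvd had the largest rise with fluvastatin. Mvd, at chr8:123160340-123170161 on the minus strand (GRCm39), encodes the decarboxylase that yields isopentenyl diphosphate. Its level was 7.34, 7.16 and 7.98 CPM with PBS, 13.7, 12.9 and 12.1 with fluvastatin and 8.33, 9.27 and 8.73 with MBV. All fluvastatin libraries were above all others, and all MBV libraries were above all PBS libraries by a smaller step. The rise with fluvastatin was 1.72-fold (log2 fold change 0.78 ± 0.0921 SE, FDR = 0.000927). With MBV the log2 fold change from PBS was 0.22 ± 0.0932, FDR = 0.120, and against fluvastatin it was -0.56 ± 0.0960, FDR = 0.124, so neither passed.

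Hmgcs1, at chr13:120151915-120169796 on the plus strand, encodes the HMG-CoA synthase just upstream of the step that fluvastatin blocks. Its level was 155, 139 and 164 CPM with PBS, 211, 211 and 235 with fluvastatin and 155, 177 and 133 with MBV. The fluvastatin libraries were above all others, and the PBS and MBV libraries overlapped. It rose 1.44-fold with fluvastatin (log2 fold change 0.52 ± 0.0637 SE, FDR = 0.00104). With MBV its log2 fold change from PBS did not pass (0.01 ± 0.0973, FDR = 0.939, 95% interval -0.21 to 0.23). The difference of -0.50 ± 0.0945 between MBV and fluvastatin missed the threshold (FDR = 0.134).

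Fdps, at chr3:89000895-89009266 on the minus strand, makes farnesyl diphosphate, from which both sterols and protein prenyl groups derive. Its level was 24.3, 24.5 and 24.9 CPM with PBS, 34.5, 31.7 and 33.2 with fluvastatin and 23.0, 22.4 and 20.9 with MBV. The 3 groups did not overlap, with MBV lowest and fluvastatin highest. The transcript was 1.35-fold higher with fluvastatin than with PBS (log2 fold change 0.43 ± 0.0574 SE, FDR = 0.00132) and 1.50-fold lower with MBV than with fluvastatin (log2 fold change -0.58 ± 0.0663 SE, FDR = 0.0261), the latter call being made in 7 of 11 alternative settings. The step from PBS to MBV was -0.16 ± 0.0590 and did not pass (FDR = 0.0760).

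The other 4 mevalonate enzymes rose less than Mvd with fluvastatin. Idi1, which interconverts the isoprene units, went from 55.3 ± 3.47 to 76.0 ± 6.53 CPM (SD, n = 3; log2 fold change 0.46 ± 0.0695 SE, FDR = 0.00223) and Pmvk, a kinase of mevalonate phosphate, from 22.1 ± 2.86 to 30.0 ± 1.13 CPM (log2 fold change 0.45 ± 0.0864 SE, FDR = 0.00629). Acat2, the thiolase that opens the pathway, and Mvk, mevalonate kinase, rose by 0.31 ± 0.0772 (FDR = 0.0183) and 0.28 ± 0.0877 (FDR = 0.0453) on the log2 scale. Mvk passed in 4 of 11 alternative settings and Acat2 in 8 of 11, whereas Mvd, Hmgcs1, Idi1, Pmvk and Fdps passed in each of the 11. With MBV, Acat2 was the only called enzyme of this group. Its level was 19.8, 18.8 and 21.9 CPM in the PBS libraries and 17.2, 17.4 and 13.5 in the MBV libraries (log2 fold change -0.34 ± 0.104 SE, FDR = 0.0408), and the MBV library farthest below was replicate 3. This call was made in 5 of 11 alternative settings.

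Of the squalene and sterol enzymes, Fdft1 differed in both comparisons that involve fluvastatin. Fdft1, at chr14:63382599-63417027 on the minus strand, encodes squalene synthase, the first enzyme committed to sterols. Its level was 60.6, 58.6 and 60.1 CPM with PBS, 76.9, 78.9 and 75.2 with fluvastatin and 57.8, 59.6 and 56.9 with MBV. The fluvastatin libraries stood apart from the other 6, among which PBS and MBV overlapped. Fdft1 was 1.29-fold higher with fluvastatin than with PBS (log2 fold change 0.36 ± 0.0465 SE, FDR = 0.00114) and 1.33-fold lower with MBV than with fluvastatin (log2 fold change -0.41 ± 0.0481 SE, FDR = 0.0261), and this last call too was made in 7 of 11 alternative settings. Compared to PBS, MBV left it at -0.05 ± 0.0447 with a 95% interval of -0.15 to 0.05.

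Dhcr7, the reductase of a last step to cholesterol, had the largest rise of this group with fluvastatin. It went from 22.3 ± 0.201 to 31.6 ± 2.44 CPM (log2 fold change 0.50 ± 0.0676 SE, FDR = 0.00136). Sqle, the squalene epoxidase, rose by 0.40 ± 0.0625 (FDR = 0.00259), and Msmo1, the methylsterol monooxygenase, by 0.34 ± 0.0615 (FDR = 0.00451). Rises of 0.25 to 0.30 were found for Nsdhl, a sterol dehydrogenase (FDR = 0.0126), Ebp, a sterol isomerase (FDR = 0.0327), Lss, the lanosterol synthase (FDR = 0.0125), Cyp51, the lanosterol demethylase (FDR = 0.00367), and Sc5d, a sterol desaturase (FDR = 0.00538). Ebp passed in 8 and Nsdhl in 9 of 11 alternative settings, and the other called enzymes of this group in all 11. Tm7sf2, a sterol reductase, did not pass (0.16 ± 0.121, FDR = 0.391). None of the squalene and sterol enzymes that rose passed the test with MBV against PBS. There, their log2 fold changes ran from -0.19 for Nsdhl to 0.15 for Ebp.

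Hsd17b7, a ketosteroid reductase of sterol synthesis, was not called with fluvastatin and fell with MBV. Its level was 16.8, 16.9 and 16.6 CPM with PBS, 14.5, 15.96 and 17.0 with fluvastatin and 12.5, 13.2 and 9.58 with MBV. PBS and fluvastatin overlapped, and all MBV libraries were below both. Fluvastatin gave -0.08 ± 0.0784, FDR = 0.507, whereas with MBV it fell 1.43-fold from PBS (log2 fold change -0.52 ± 0.110 SE, FDR = 0.00866), a call made in each of 11 alternative settings. The direct comparison of MBV and fluvastatin did not pass (-0.43 ± 0.125, FDR = 0.315).

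**Figure D4:**
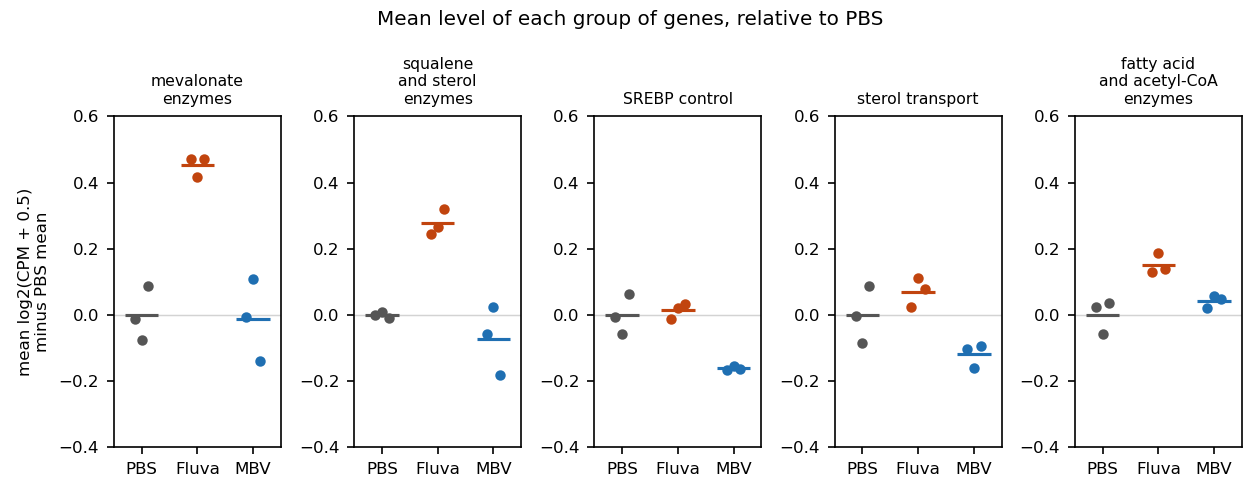
Points give each library's mean log2(CPM + 0.5) over the genes of a role minus the mean of the PBS libraries, lines give group means, and Fluva stands for fluvastatin. The mean level of the mevalonate enzymes was 4.74 ± 0.0818 with PBS, 5.19 ± 0.0302 with fluvastatin and 4.73 ± 0.124 with MBV (SD, n = 3), and that of the squalene and sterol enzymes was 4.89 ± 0.00970, 5.17 ± 0.0396 and 4.82 ± 0.103.

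Insig1, at chr5:28276361-28283660 on the plus strand, separated the 3 groups. Its level was 83.2, 77.5 and 89.8 CPM with PBS, 108, 113 and 117 with fluvastatin and 64.0, 67.3 and 58.3 with MBV. No library of a group overlapped with those of another, with MBV below PBS and PBS below fluvastatin. Insig1 was 1.35-fold higher with fluvastatin than with PBS (log2 fold change 0.43 ± 0.0583 SE, FDR = 0.00141). It was 1.33-fold lower with MBV than with PBS (log2 fold change -0.41 ± 0.0686 SE, FDR = 0.00307). Between MBV and fluvastatin it was 1.78-fold lower with MBV (log2 fold change -0.83 ± 0.0621 SE, FDR = 0.00306), the smallest p-value of all genes tested in that comparison. This last call was made in 9 of 11 alternative settings, with FDRs from 9.05e-24 to 0.0750. Insig2, the related gene that is not a classical SREBP target, did not pass in any of the 3 comparisons, and its groups overlapped, at 40.1, 36.8 and 42.1 CPM with PBS, 38.0, 41.0 and 41.7 with fluvastatin and 40.6, 40.3 and 41.1 with MBV. MBV and fluvastatin differed in it by 0.02 on the log2 scale, with a 95% interval of -0.11 to 0.14.

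Srebf1, at chr11:60089915-60113407 on the minus strand, encodes SREBP-1, which is tied chiefly to fatty acid synthesis, and was lower in both treated groups. Its level was 123, 122 and 123 CPM with PBS, 81.6, 83.0 and 82.9 with fluvastatin and 84.4, 79.7 and 92.6 with MBV. The PBS libraries were above all 6 treated libraries, and fluvastatin and MBV overlapped. The fall was 1.49-fold with fluvastatin (log2 fold change -0.58 ± 0.0414 SE, FDR = 0.000107), the smallest p-value of the 31 genes in that comparison, and 1.45-fold with MBV (log2 fold change -0.53 ± 0.0566 SE, FDR = 0.000621). Both calls were made in each of 11 alternative settings. MBV and fluvastatin differed by 0.05 ± 0.0598 (95% interval -0.08 to 0.19, FDR = 0.752). Both falls compare libraries taken to be of different sets, and the set cannot be told apart from the treatment. Part of the Müller glia and pigment cell markers were also lower in both treated groups. With fluvastatin 5 of 8 and 6 of 9 were called lower, beside 10.2% of all genes. With MBV these were 3 of 8 and 6 of 9, beside 14.1%. Rgr, of the pigment list, was at 15.4, 24.2 and 14.3 CPM with PBS and 25.3, 45.5 and 41.0 with fluvastatin, where it was called higher. With MBV it was at 19.8, 28.3 and 47.9 CPM. Vim, of the Müller list, did not separate fluvastatin from PBS. Its level was 155, 144 and 178 CPM with PBS and 240, 322 and 134 with MBV. Rpe65 and Best1 of the pigment list and Glul, Slc1a3, Kcnj10 and Sox9 of the Müller list overlapped between MBV and PBS. Rpe65, Best1, Glul, Kcnj10 and Sox9 also overlapped between fluvastatin and PBS. The part of these markers in the fall of Srebf1 was not tested.

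Srebf2 and Scap, which encodes the SREBP escort, did not pass in any of the 3 comparisons. The level of Srebf2 was 176 ± 10.2 CPM (SD, n = 3) in the PBS, 192 ± 2.91 in the fluvastatin and 171 ± 8.00 in the MBV libraries. Its log2 fold change was 0.13 ± 0.0473, FDR = 0.0925 for fluvastatin against PBS and -0.17 ± 0.0495, FDR = 0.321 for MBV against fluvastatin. Scap gave 0.07 ± 0.0455, FDR = 0.359 and 0.05 ± 0.0467, FDR = 0.705 in the same comparisons.

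**Figure D5:**
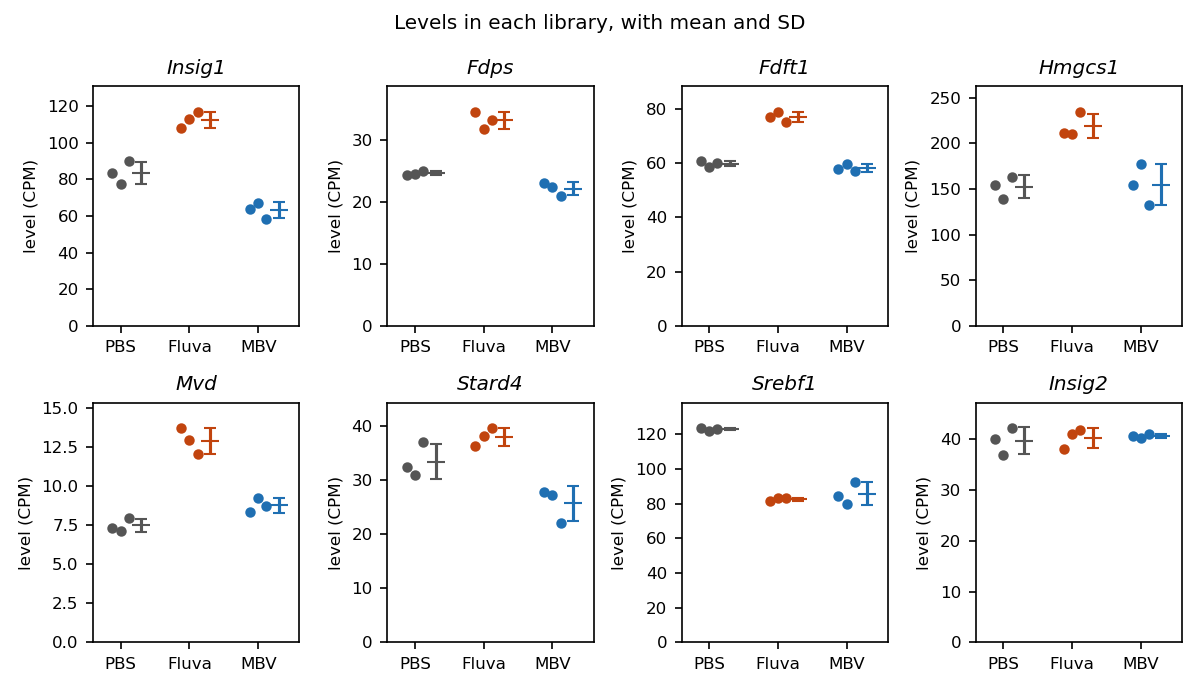
Points give the level in CPM of 8 genes in each library, beside the mean and SD of each group of 3, on axes that start at 0 (Fluva, fluvastatin). The Insig1 and Fdps groups are all separate, Fdft1 and Hmgcs1 are high only with fluvastatin, Srebf1 is high only with PBS, and the Insig2 groups overlap.

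Of the sterol transport genes, Stard4, which carries cholesterol between membranes in the cytosol, was lower with MBV. Its level was 32.5, 30.9 and 37.0 CPM with PBS, 36.2, 38.1 and 39.6 with fluvastatin and 27.8, 27.3 and 22.03 with MBV. All MBV libraries were below all others, with replicate 3 the lowest, and PBS and fluvastatin overlapped. The fall from PBS was 1.31-fold (log2 fold change -0.39 ± 0.0986 SE, FDR = 0.0195) and was called in 8 of 11 alternative settings. Fluvastatin against PBS gave 0.18 ± 0.0712, FDR = 0.0997, and MBV against fluvastatin gave -0.56 ± 0.0897, FDR = 0.100. Npc1 and Npc2, which move cholesterol out of lysosomes, stayed between -0.02 and 0.02 in all 3 comparisons and did not pass in any.

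Among the acetyl-CoA and fatty acid enzymes, Acly and Fasn rose with fluvastatin. Acly was at 252, 237 and 253 CPM with PBS and 304, 298 and 281 with fluvastatin, without overlap (log2 fold change 0.25 ± 0.0454 SE, FDR = 0.00473). Fasn, the fatty acid synthase, went from 239 ± 12.1 to 268 ± 9.50 CPM (log2 fold change 0.17 ± 0.0474 SE, FDR = 0.0328) and passed in 6 of 11 alternative settings. Acss2, which makes acetyl-CoA from acetate, and the fatty acid desaturases Fads1 and Fads2 did not pass, with log2 fold changes of 0.19, 0.13 and 0.02. With MBV against PBS, this group ran from -0.04 to 0.15. edgeR and DESeq2 called 0 of the 5 genes there, and 1, Acss2, had an unadjusted p under 0.05.

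Of 26 further SREBP targets and regulators, 5 rose and 10 fell with fluvastatin compared to PBS, beside 9.36% and 10.2% of all genes. The rises included Scd1, a stearoyl-CoA desaturase (0.73 ± 0.112, FDR = 0.00224), Mmab, of cobalamin metabolism (0.48 ± 0.0643, FDR = 0.00134), Elovl6, a fatty acid elongase (0.36 ± 0.0535, FDR = 0.00199), and Lrp8, a lipoprotein receptor of neurons (0.32 ± 0.0459, FDR = 0.00171). The falls included Acacb, an acetyl-CoA carboxylase (-0.72 ± 0.131, FDR = 0.00498), and Me1, the malic enzyme (-0.51 ± 0.0540, FDR = 0.000630). With MBV compared to PBS, 5 rose and 9 fell, beside 12% and 14.1% of all genes. Mmab (0.36 ± 0.0560, FDR = 0.00243), Elovl6 (0.26 ± 0.0528, FDR = 0.00707) and Lrp8 (0.35 ± 0.0680, FDR = 0.00610) rose here too, and Me1 fell (-0.54 ± 0.0750, FDR = 0.00144). Scd1 stood at -0.03 ± 0.0930 and Acacb at -0.33 ± 0.152, and neither passed. Between MBV and fluvastatin, edgeR called none of the 26 and DESeq2 called 2, both lower, and 3 had an unadjusted p under 0.05, all lower with MBV. The largest of these was Scd1 (-0.76 ± 0.122, FDR = 0.100).

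The branch from farnesyl diphosphate to protein prenylation, dolichol and ubiquinone held no gene called higher in the comparisons with PBS. Of 14 such genes, edgeR and DESeq2 called none higher with fluvastatin, and none had an unadjusted p under 0.05 in that direction. edgeR called 3 lower, beside 10.2% of all genes: Ggps1, which makes geranylgeranyl diphosphate (-0.14 ± 0.0424, FDR = 0.0390), the prenyl protein protease gene Zmpste24 (-0.21 ± 0.0614, FDR = 0.0348) and Pdss2, of ubiquinone synthesis (-0.29 ± 0.0869, FDR = 0.0424). DESeq2 called 1 lower. Over the 14 genes the median was -0.11, beside 0.45 over the mevalonate enzymes that supply it and -0.01 over all genes. With MBV against PBS, 6 were called lower, beside 14.1% of all genes, among them Ggps1 (-0.30 ± 0.0444, FDR = 0.00187), and the median was -0.15, beside 0.01 over all genes. Fnta, the shared alpha subunit of the farnesyl and geranylgeranyl transferases, did not pass in either (-0.12 ± 0.0541, FDR = 0.169 and -0.06 ± 0.0513, FDR = 0.397).

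Some of the genes overlap others, and the sources used here do not say whether counting used strand, so reads of such pairs may be shared. A gene on the other strand overlaps 20 of the 31, and 9 overlap a protein-coding gene. Fdft1 overlaps the more abundant Ctsb, whose change was -0.08 ± 0.0501, FDR = 0.328 with fluvastatin against PBS and -0.01 ± 0.0759, FDR = 0.980 with MBV against fluvastatin. Srebf1 overlaps Rai1, which rose with fluvastatin (0.19 ± 0.0420, FDR = 0.0126) while Srebf1 fell. Acat2 overlaps Tcp1, which fell with fluvastatin (-0.17 ± 0.0468, FDR = 0.0301) while Acat2 rose. With MBV, Tcp1 was lower too (-0.24 ± 0.0531, FDR = 0.0114). Cyp51 overlaps Akap9, which rose by a similar amount with fluvastatin (0.24 ± 0.0390, FDR = 0.00289), and Tm7sf2 lies on the same strand as the overlapping Vps51.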

How the data were processed

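Gene counts of 9 libraries, 3 each with PBS, fluvastatin and MBV, were taken from 3 of the 4 deposited tables. Per the paper's methods, the authors prepared libraries with a TruSeq Total RNA kit, aligned read pairs to GRCm39 in CLC Genomics Workbench, which also gave the gene counts. The counts were deposited without normalization. The authors' columns of fold changes, p-values and FDRs, one comparison of 2 groups per table, were not used. The table of the combined treatment has 6 count columns without a library name, which were used in no step, so its comparison with PBS, the main effects and the interaction were not made. Another 9 columns repeat a library and held identical values.

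Genes with a count in at least 1 library of a fit were normalized by TMM and tested by edgeR's quasi-likelihood test in a fit of the 2 groups alone (edgeR 4.0.16, R 4.3.3), with Benjamini-Hochberg adjustment over all genes. The standard error is the log2 fold change divided by the square root of F. CPM used TMM factors over 9 libraries (0.987 to 1.03). Levels per library over a role are means of log2(CPM + 0.5). Python 3.11.15, numpy 2.4.6, pandas 2.3.3 and matplotlib 3.10.9 were used for the rest. The procedure was checked on simulated data, with 100 genes changed 1.5-fold and 100 changed 2-fold in each comparison. With fluvastatin against PBS, 81 and 98 of these were called, beside 18 false calls. With MBV against PBS, 87 and 100 were called, beside 20 false calls. Between MBV and fluvastatin, 80 and 93 were called, beside 28 false calls. Smaller folds, which most calls described here have, were not simulated. Positions are those of the deposited tables, and transcript lengths and overlaps are from GENCODE mouse release M39.

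The genes, their roles and the other lists were chosen with earlier results of these data known. Full statistics are given for genes with an FDR under 0.05 in at least 1 comparison and for the 3 smallest p-values of each. Alternatives were DESeq2 1.42.0, its size factors, at least 10 counts in 2 libraries, the replicate number as a block, 1 fit of 9 libraries, leaving out each library and, for levels, a pseudocount of 2 and unnormalized totals. Intervals cover the spread between libraries.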

Additional observations from a re-analysis of the deposited data

How the results depend on the processing

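Signs of the called genes did not change in any of 11 settings per comparison. With fluvastatin against PBS, 15 of the 20 calls were made in every setting, and leaving out 1 library gave 15 to 20 genes. With MBV against PBS, 3 of 5 calls were made in every setting, and leaving out 1 library gave 3 to 6. Between MBV and fluvastatin, DESeq2 gave 13 genes, 1 fit of all 9 libraries gave 9, and leaving out 1 library gave 0 to 9. Same replicate numbers did not pair the libraries (correlations of deviations from -0.239 to 0.128). With the replicate number as a block, 3 genes were called with MBV against PBS and 19 with fluvastatin against PBS. Between MBV and fluvastatin the block left 0, where 20 of the 31 genes had an unadjusted p under 0.05, all lower. The cause of these shifts was not tested. A pseudocount of 2 moved the mean level of the 31 genes from 5.52 to 5.59 with PBS, from 5.76 to 5.82 with fluvastatin and from 5.47 to 5.54 with MBV. Calls over all genes between MBV and fluvastatin moved most, from 11 to 126 with DESeq2, 38 in 1 fit of 9 libraries, 5 with at least 10 counts in 2 libraries, 0 with the block, and 0 (without MBV replicate 1) to 197 (without MBV replicate 3) when 1 library was left out. Leaving out 1 library gave 1726 to 4402 genes with fluvastatin against PBS and 2711 to 5664 with MBV against PBS, the lowest without PBS replicate 1 in both. Counting error is largest for the least counted of the 31 genes, whose lowest count was 130. The combined treatment was not analysed here, and alternatives for it were not run.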
